A study of Homo sapiens with 21 samples.

Results

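The 35 genes described here encode aminoacyl-tRNA synthetases, 19 of the cytosol and 16 of mitochondria. They were taken by name from the protein-coding rows of a count table of 66738 genes, with an older name such as WARS read as WARS1 and a name ending in 2 read as mitochondrial. All 35 were found, on 53 rows. A single row holds 31 of them (17 cytosolic, 14 mitochondrial), and these 31 all passed the filter on low counts and carry the RNA results. CARS1, VARS1, VARS2 and SARS2 also have rows on alternate sequences of the assembly and are given apart.

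Each synthetase joins 1 amino acid to its matching tRNAs and so sets which amino acid is built into protein at a codon. Class I and class II enzymes differ in the fold of the catalytic domain. In the cytosol several of them are held with scaffold proteins in a large multisynthetase complex, and others work free of it. Mitochondria have their own set, encoded in the nucleus and imported, and KARS1 and GARS1 serve both compartments. When an amino acid is missing, uncharged tRNA activates the kinase GCN2, translation of ATF4 increases, and ATF4 with its C/EBP partners is known to drive transcription of many cytosolic synthetase genes. WARS1, the tryptophan enzyme, is also a classical target of interferon gamma.

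RS4;11 cells, an established precursor B-cell acute lymphoblastic leukaemia line with a KMT2A-AFF1 fusion, were kept for 24 h in 3 media. These were complete medium (+Asn), medium without asparagine (-Asn), and asparagine-free medium to which ferric nitrate (10 µM) was added together with hinokitiol (0.75 µM), an iron carrier (-Asn+Fe). Iron and hinokitiol were given together, so their parts cannot be told apart, and hinokitiol is named in a treatment note common to all samples. Each medium has 3 RNA libraries, 3 libraries of chromatin precipitated for H3K4me3, a histone mark of active promoters, and 1 input library, not analysed here. All groups are 1 cell line, and H3K4me3 and RNA come from separate libraries.

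Depth of RNA sequencing was 29362707 to 42478518 counts per library. All 13 precursor B-cell leukaemia markers examined were above 1 CPM in every medium, with a summed level of 3456 to 3521 CPM in +Asn, 3237 to 3352 in -Asn and 2936 to 3071 in -Asn+Fe. In -Asn 4 of the 13 rose and 7 fell, beside 31% and 30.2% of all genes tested. The share that rose is near that of all genes, and the share that fell is above it. The largest fall was that of RAG1 (log2 -2.15). Of 5 T-cell, 5 myeloid and 4 erythroid markers only TRAC reached 1 CPM, and the defining T-cell genes CD3D, CD3E and CD3G stayed at or under 0.05 CPM on average (summed T-cell level 341 to 363 CPM in +Asn, 299 to 370 in -Asn and 254 to 275 in -Asn+Fe, nearly all of it TRAC). Replicate 1 of -Asn stood apart from the other -Asn libraries, with a chi-square per degree of freedom of 37.0 and 40.8 against 5.73 between the other two. No label says that the 3 libraries of a medium were grown as separate cultures, and the spread behind each p-value may therefore be technical. In bulk RNA, fewer cells of a kind and less RNA per cell cannot be told apart. Values with ± are means and SDs over n = 3 libraries, and CPM is the usual count per library total, with the total corrected by edgeR's TMM factor.

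The promoters are shown first, and their letters are set beside the RNA changes further on. The motifs searched were chosen with earlier results of these data known, and no test of an association was made. RefSeq promoter windows (GRCh38.p14, 250 bases before to 50 bases from the start on) were at hand for 30 of the 35 genes. The C/EBP-ATF response element, written TGATGNAA and searched on both strands, was present in windows of 7 of 16 cytosolic and 1 of 14 mitochondrial genes, that is in 8 of their 39 windows, against 3.62% of all 35116 windows. These are the 8 elements in capitals with up to 10 bases on each side, read on the strand on which they spell TGATGNAA.
AARS1, chr16:70289676-70289703, plus strand: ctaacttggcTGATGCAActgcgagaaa
CARS1, chr11:3057408-3057435, plus strand: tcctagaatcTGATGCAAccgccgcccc
GARS1, chr7:30594835-30594862, minus strand: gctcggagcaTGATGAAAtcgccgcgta
IARS1, chr9:92293693-92293720, plus strand: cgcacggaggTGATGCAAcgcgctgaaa
MARS1, chr12:57488054-57488081, minus strand: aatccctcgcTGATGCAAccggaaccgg
NARS1, chr18:57621805-57621832, minus strand: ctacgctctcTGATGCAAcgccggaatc
TARS1, chr5:33440957-33440984, minus strand: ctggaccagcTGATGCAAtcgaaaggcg
YARS2, chr12:32756077-32756104, minus strand: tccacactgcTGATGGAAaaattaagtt
In 6 of the 7 cytosolic genes the letters were TGATGCAA, and GARS1 has TGATGAAA. The first base of the match lay between -33 and 14 relative to the start (base 0) in these genes, except at -187 in AARS1. The YARS2 match lay at -197.

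Whole windows follow for the 4 single-row genes with the largest RNA rises and for the one promoter that a pair of the genes shares, with matches of any searched motif in capitals. WARS1 has 2 RefSeq starts, 980 bases apart on the minus strand of chromosome 14, and no TGATGNAA in either window.
WARS1, upstream start, chr14:100376278-100376577, minus strand: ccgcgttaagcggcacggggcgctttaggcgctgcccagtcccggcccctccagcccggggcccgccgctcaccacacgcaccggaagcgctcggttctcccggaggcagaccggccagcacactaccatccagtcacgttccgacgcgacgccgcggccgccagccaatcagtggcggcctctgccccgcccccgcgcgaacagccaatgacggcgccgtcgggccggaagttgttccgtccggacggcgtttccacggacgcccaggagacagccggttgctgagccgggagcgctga
WARS1, downstream start, chr14:100375298-100375597, minus strand: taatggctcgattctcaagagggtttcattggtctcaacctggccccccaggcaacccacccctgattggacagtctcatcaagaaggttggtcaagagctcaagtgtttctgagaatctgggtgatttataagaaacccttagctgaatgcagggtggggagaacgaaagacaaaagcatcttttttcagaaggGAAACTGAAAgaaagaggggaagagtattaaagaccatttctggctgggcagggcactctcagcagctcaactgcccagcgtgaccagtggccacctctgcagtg
The capitals in the downstream window mark the core of the interferon-stimulated response element, GAAA on both sides of NN, whose first base lies 55 bases before that start. This motif was added after the window had been read, so its presence there is no test. It was in windows of 2 of the 30 genes (WARS1 and EARS2), that is in 3 of their 39 windows, and in 3.57% of all windows.

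AARS1, the alanine enzyme, and MARS1, the methionine enzyme, carry the C/EBP-ATF element on the strand opposite to the gene. On the gene's own strand, printed here, it reads TTGCATCA.
AARS1, chr16:70289457-70289756, minus strand: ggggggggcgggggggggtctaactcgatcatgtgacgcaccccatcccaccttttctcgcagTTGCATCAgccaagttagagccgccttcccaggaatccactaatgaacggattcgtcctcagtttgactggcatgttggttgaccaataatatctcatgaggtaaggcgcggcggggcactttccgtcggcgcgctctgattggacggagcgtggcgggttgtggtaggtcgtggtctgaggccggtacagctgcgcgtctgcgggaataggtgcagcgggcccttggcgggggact
MARS1, chr12:57487818-57488117, plus strand: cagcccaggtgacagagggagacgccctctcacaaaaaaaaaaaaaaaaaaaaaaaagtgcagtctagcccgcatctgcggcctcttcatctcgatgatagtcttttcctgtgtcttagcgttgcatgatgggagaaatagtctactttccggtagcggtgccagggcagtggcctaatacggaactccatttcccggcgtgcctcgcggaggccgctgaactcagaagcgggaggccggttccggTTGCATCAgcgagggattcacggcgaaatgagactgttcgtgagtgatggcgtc
SARS1, the serine enzyme, has no TGATGNAA in its windows. The capitals in it mark the core of the NRF1 site, searched as GCGCANGCG. This core was found in windows of 6 of the 30 genes, that is in 8 of their 39 windows, and in 7.52% of all windows.
SARS1, chr1:109213643-109213942, plus strand: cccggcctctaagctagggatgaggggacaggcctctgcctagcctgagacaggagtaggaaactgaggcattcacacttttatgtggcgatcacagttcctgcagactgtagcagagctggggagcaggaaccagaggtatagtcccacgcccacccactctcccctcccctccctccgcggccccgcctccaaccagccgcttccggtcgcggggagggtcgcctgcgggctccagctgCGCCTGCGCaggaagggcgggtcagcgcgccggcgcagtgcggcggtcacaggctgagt
HARS1 and HARS2, the histidine enzymes of the cytosol and of mitochondria, start 85 bases apart on opposite strands of chromosome 5. Their windows overlap by 184 bases, and none of the searched motifs was in either.
HARS1, chr5:140691321-140691620, minus strand: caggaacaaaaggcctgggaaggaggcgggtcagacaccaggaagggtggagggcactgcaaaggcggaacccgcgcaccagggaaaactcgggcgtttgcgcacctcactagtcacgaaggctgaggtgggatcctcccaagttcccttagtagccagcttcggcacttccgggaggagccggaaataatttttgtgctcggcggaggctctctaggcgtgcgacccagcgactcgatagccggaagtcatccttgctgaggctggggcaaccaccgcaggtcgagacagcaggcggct
A match is a description of the letters, not a bound site. The E-box, CACGTG, was found for IARS1, CARS2, EARS2 and MARS2, that is in 5 of the 39 windows, and in 7.26% of all windows. No window was at hand for AARS2, VARS2, YARS1, VARS1 or LARS1.

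The first comparison asks what 24 h without asparagine did to synthetase RNA. Most cytosolic genes moved, and they moved both ways. Of 17 cytosolic genes 10 rose, 6 fell and 1 was not called, with a median log2 fold change of 0.51. Over all 17939 genes tested 31% rose and 30.2% fell, with a median of 0.04. So a share of genes that fell near the background (6 of 17) stood beside a larger share that rose. All 6 changes of at least 2-fold were rises: WARS1, SARS1, AARS1, MARS1, GARS1 and IARS1.

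**Figure D1:**
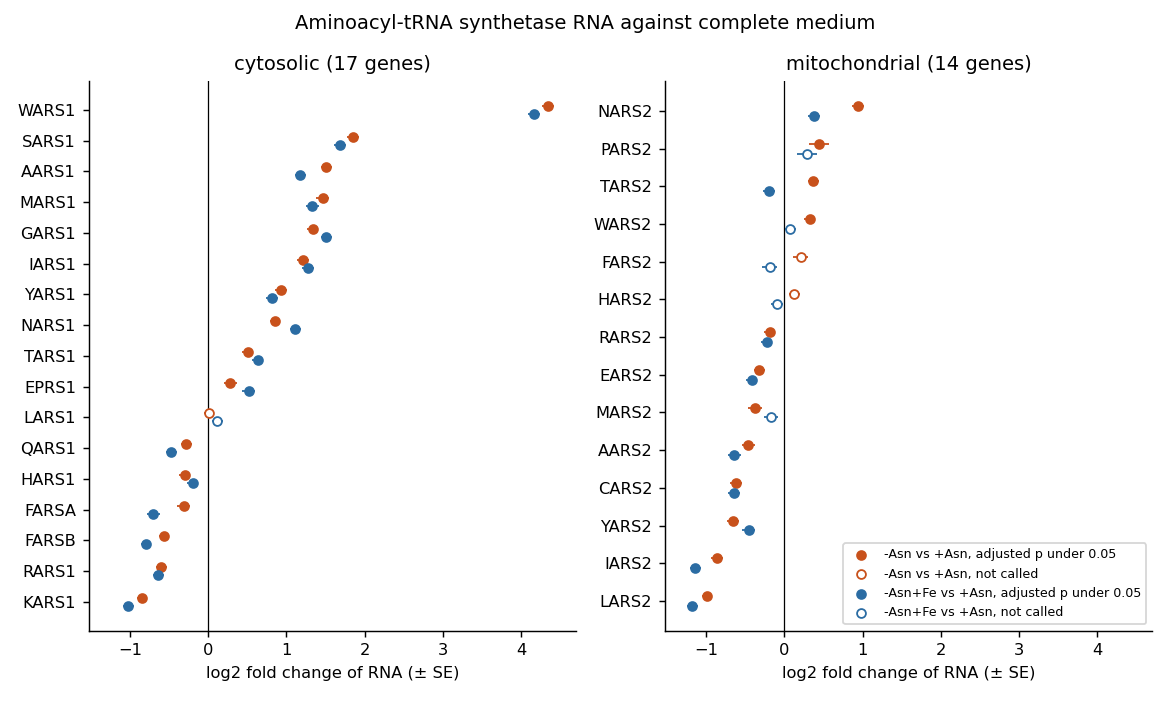
Log2 fold change of RNA against +Asn (x axis, ± SE) for each synthetase gene with a single row (y axis), in -Asn and in -Asn+Fe, with filled points where the edgeR adjusted p is under 0.05. WARS1 stands at 4.34 and 4.16, and every other cytosolic gene lies between -1.02 and 1.85; the mitochondrial genes lie between -1.18 and 0.94.

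WARS1 (ENSG00000140105.18, chromosome 14, 100333790 to 100376805 of hg38) charges tRNA with tryptophan. Its level was 98.2, 100 and 94.7 CPM in the +Asn libraries, and 2072, 1914 and 1948 CPM in the -Asn libraries. The groups lay far apart, and the rise was 20.3-fold (log2 4.34, SE 0.0794, edgeR adjusted p = 6.15e-16). Per kb of transcript model WARS1 went from 15.4 ± 0.427 to 311 ± 13.1 CPM per kb. In +Asn it was near the low end of the cytosolic genes, which ran from 13.4 (HARS1) to 70.9 CPM per kb (KARS1), and in -Asn it was the highest. WDR25, a gene whose first base lies inside the WARS1 row on the other strand, rose from 3.69 ± 0.532 to 9.66 ± 1.22 CPM, and its reads cannot be told from those of WARS1 where strand was not used in counting.

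SARS1 charges serine and also selenocysteine tRNA. It stood at 106, 107 and 108 CPM in +Asn, and at 422, 362 and 371 CPM in -Asn. All -Asn libraries were above all +Asn libraries, by 3.60-fold (log2 1.85, SE 0.0742, edgeR adjusted p = 2.68e-12). AARS1 was at 248, 242 and 258 CPM in +Asn against 762, 695 and 677 CPM in -Asn (log2 1.51, SE 0.0725, edgeR adjusted p = 2.26e-11). MARS1, a member of the multisynthetase complex, was at 192, 185 and 195 CPM against 592, 499 and 489 CPM (log2 1.47, SE 0.0819, edgeR adjusted p = 1.53e-10). In all 3 genes replicate 1 of -Asn, the library that stood apart, was the highest.

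GARS1 makes glycyl-tRNA for both compartments. Its level was 124, 138 and 136 CPM in +Asn and 360, 313 and 332 CPM in -Asn (log2 1.33, SE 0.0739, edgeR adjusted p = 1.38e-10). IARS1, the isoleucine enzyme and a complex member, was at 379, 390 and 393 CPM in +Asn. In -Asn it reached 785, 956 and 953 CPM, with replicate 1 the lowest here (log2 1.21, SE 0.0812, edgeR adjusted p = 1.44e-09). The tyrosine enzyme YARS1 rose by log2 0.93, the threonine enzyme TARS1 by 0.51, and EPRS1, which carries the glutamate and proline enzymes in 1 chain, by 0.29.

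NARS1, the enzyme that uses asparagine itself, rose less than these 6. It was at 240, 254 and 253 CPM in +Asn and at 446, 439 and 465 CPM in -Asn, with no overlap (1.81-fold, log2 0.85, SE 0.0662, edgeR adjusted p = 8.83e-09). Its mitochondrial counterpart NARS2 rose by a similar log2 0.94 (SE 0.0727, edgeR adjusted p = 8.59e-09), from 73.3, 65.1 and 72.3 CPM to 131, 135 and 138 CPM. No test was made of whether their changes differ from each other. The level per kb remained higher for NARS1, at 110 ± 3.31 against 42.8 ± 1.05 CPM per kb in -Asn.

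**Figure D2:**
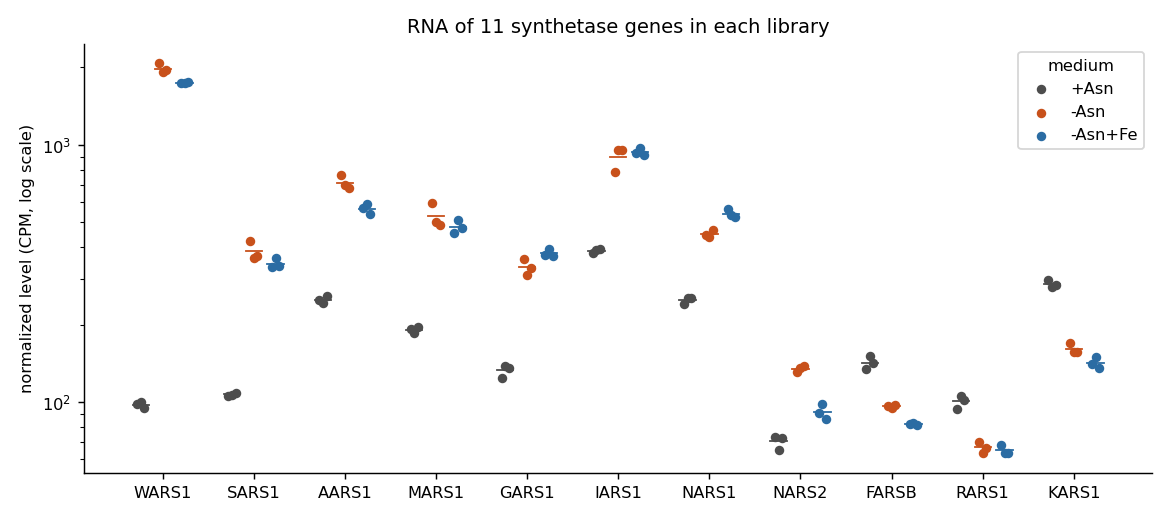
Normalized RNA level (CPM, log axis) of 11 synthetase genes in each of the 9 libraries, coloured by medium, with the group mean as a line. WARS1 goes from under 101 CPM in +Asn to 1741 CPM or more in all libraries without asparagine, while KARS1 falls from 288 to 161 and 142 CPM on average.

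KARS1, the lysine enzyme of both compartments and a complex member, had the highest level per kb in +Asn and the largest fall of the cytosolic genes. It stood at 299, 280 and 286 CPM in +Asn and at 169, 157 and 156 CPM in -Asn (log2 -0.84, SE 0.0677, edgeR adjusted p = 1.35e-08). RARS1, for arginine and also in the complex, went from 94.1, 106 and 102 CPM to 69.99, 63.1 and 66.5 CPM (log2 -0.60, SE 0.0706, edgeR adjusted p = 1.44e-06). FARSB, the beta subunit of the phenylalanine enzyme, went from 134, 150 and 142 CPM to 96.3, 94.6 and 97.7 CPM (log2 -0.56, SE 0.0642, edgeR adjusted p = 9.29e-07). FARSA, its partner alpha subunit, fell by 0.31 on the log2 scale, so both subunits moved down. HARS1 and QARS1, for histidine and glutamine, fell by 0.30 and 0.28. LARS1, for leucine, did not pass the test (log2 0.02).

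The rises and falls crossed the known groupings. Of 7 tested enzymes of the multisynthetase complex 3 rose (MARS1, IARS1, EPRS1), 3 fell (KARS1, RARS1, QARS1) and LARS1 was not called, with a median log2 of 0.02. Outside the complex 7 of 10 rose and 3 fell, with a median of 0.89. All 3 scaffold genes of the complex rose: EEF1E1 by log2 0.71, AIMP2 by 0.49 and AIMP1 by 0.19. Of class I enzymes 4 of 7 rose and 2 fell, and of class II 5 of 9 rose and 4 fell, with EPRS1, which holds 1 enzyme of each class, left out. Of all genes 31% rose and 30.2% fell. The falls outside the complex and in class I lie near that share, and those in the complex and in class II somewhat above it. The shares of enzymes that rose are above 31% in each group. The groups are small, at 7 to 10 genes, and no test was made of whether they differ.

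Setting the calls beside the promoter letters, the 6 cytosolic genes with TGATGNAA and a single row all rose, by log2 0.51 to 1.51 (median 1.27). Of the 9 cytosolic genes whose windows lack it 3 rose (WARS1, SARS1 and EPRS1) and 6 fell, with a median of -0.30. The 1 mitochondrial gene with the element, YARS2, fell (log2 -0.66). The motif was chosen with the rises of these genes known, and no test of the association was made. All 3 mitochondrial genes with an E-box fell (CARS2, EARS2 and MARS2), and the calls of EARS2 and MARS2 were lost with library totals. Of the 10 whose windows lack it 4 fell, 4 rose and 2 were not called. IARS1, the only cytosolic gene with an E-box, rose. Over all genes 31% rose and 30.2% fell.

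With TMM factors mitochondrial synthetase RNA went mostly the other way. Of 14 genes 4 rose, 8 fell and 2 were not called, with a median log2 fold change of -0.25 and no change of 2-fold or more. The share that fell is above the 30.2% of all genes, and the share that rose is close to the 31%. With library totals 6 rose and 5 fell, where 7343 of all genes rose and 3836 fell. The calls of EARS2, MARS2 and RARS2 were then lost. LARS2, for leucine, fell from 85.9, 77.9 and 80.7 CPM to 40.4, 41.0 and 42.002 CPM (log2 -0.99, SE 0.0664, edgeR adjusted p = 1.57e-09). IARS2, for isoleucine, fell from 168 ± 4.07 to 92.7 ± 6.37 CPM (log2 -0.86). YARS2 and CARS2, for tyrosine and cysteine, fell by 0.66 and 0.62, and AARS2, MARS2, EARS2 and RARS2 by 0.46, 0.38, 0.32 and 0.19. NARS2 had the largest rise, followed by PARS2 for proline (log2 0.45), TARS2 for threonine (0.37) and WARS2 for tryptophan (0.32). FARS2 and HARS2 were not called.

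The ratio of cytosolic to mitochondrial RNA lay apart between media for some amino acids. That of WARS1 to WARS2, in CPM per kb, was 1.84 to 2.09 in the +Asn libraries and 31.6 to 33.3 in the -Asn libraries. For isoleucine it went from 1.24 to 1.33 up to 5.11 to 5.70, and for alanine from 6.05 to 6.32 up to 22.8 to 25.9. The ratio moved the other way for histidine, from 1.11 to 1.18 down to 0.801 to 0.883, and for arginine, from 2.08 to 2.195 down to 1.58 to 1.63. For asparagine the ranges of +Asn (2.52 to 3.01) and -Asn (2.49 to 2.61) overlapped. The HARS1 and HARS2 rows lie head to head at their shared promoter.

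Together the 19 cytosolic genes took 0.348% ± 0.00460 of all counts in +Asn and 0.824% ± 0.00841 in -Asn. WARS1 alone went from 0.00877% ± 0.000251 to 0.205% ± 0.00531. Without WARS1 the cytosolic share was 0.339% ± 0.00485 and 0.620% ± 0.00315. The 16 mitochondrial genes took 0.0661% ± 0.00231 and 0.0668% ± 0.00116. These shares use library totals and no TMM factor.

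Scaling bears on the genes with small changes. With library totals in place of TMM factors the median of all genes in -Asn against +Asn moved from log2 0.04 to 0.25, and 7343 genes rose and 3836 fell, where TMM gave 5558 and 5413. Then 11 cytosolic genes rose and 3 fell, and 6 mitochondrial genes rose and 5 fell. RARS2 changed sign (log2 0.02, edgeR adjusted p = 0.805) and lost its call under 7 of 17 alternatives, among them leaving out replicate 2 of +Asn (-0.18) or of -Asn (-0.14) and both other filters on low counts, and FARSA, HARS1, QARS1, EARS2 and MARS2 were no longer called. KARS1, RARS1, FARSB, LARS2, IARS2, YARS2, CARS2 and AARS2 still fell. LARS1, FARS2 and HARS2 were called higher on that scale. The 10 cytosolic genes that rose with TMM factors kept their calls under all 17 alternatives.

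The second comparison asks whether iron with hinokitiol changed synthetase RNA in cells without asparagine. Changes were small, and no gene moved by 2-fold. Of 17 cytosolic genes 2 rose, 4 fell and 11 were not called (median log2 -0.11), and of 14 mitochondrial genes 0 rose, 7 fell and 7 were not called (median -0.18). Over all genes 14% rose and 16.8% fell. The fall among mitochondrial genes is above that background, and the cytosolic counts are near it. Without replicate 3 of -Asn+Fe 3 mitochondrial and 2 cytosolic genes fell, and without its replicate 1 4 and 2 fell. The cytosolic count that rose was 5 without replicate 1 of -Asn and 1 without replicate 2 of -Asn or replicate 1 or 2 of -Asn+Fe, and 1 mitochondrial gene rose without replicate 1 of +Asn.

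WARS1 was at 1741, 1746 and 1753 CPM in -Asn+Fe, below all 3 -Asn libraries, but did not pass the test against -Asn (log2 -0.18, SE 0.0689, edgeR adjusted p = 0.0582). SARS1 was at 336, 362 and 336 CPM, overlapping with -Asn (log2 -0.16, SE 0.0715). AARS1 fell, to 566, 588 and 540 CPM (log2 -0.33, SE 0.0709, edgeR adjusted p = 0.00204). NARS1 rose further, to 561, 532 and 525 CPM (log2 0.26, SE 0.0656, edgeR adjusted p = 0.00642). NARS2 went the other way and fell to 90.2, 98.6 and 85.8 CPM (log2 -0.56, SE 0.0721, edgeR adjusted p = 2.19e-05). The NARS1 to NARS2 ratio, in CPM per kb, was thus 4.15 to 4.79 in -Asn+Fe, above the 2.49 to 2.61 of -Asn.

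TARS2 also fell with iron and hinokitiol, from 72.3, 65.4 and 63.9 CPM to 44.3, 49.0 and 43.1 CPM (log2 -0.56, SE 0.0741, edgeR adjusted p = 2.62e-05). That level is below the 50.85 to 53.45 CPM of +Asn (log2 -0.19), but the call against +Asn was lost under 5 of 17 alternatives. FARS2, FARSA and these genes (AARS1, NARS1, NARS2, TARS2) kept their calls between -Asn+Fe and -Asn under every alternative. FARS2 and FARSA, the phenylalanine enzymes of mitochondria and of the cytosol, both fell by 0.39. The falls of FARSB, QARS1, HARS2, IARS2, LARS2 and WARS2 and the rise of EPRS1 (log2 0.23) were each lost under at least 2 alternatives, and for LARS2 under 14 of 17.

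The third comparison sets -Asn+Fe against +Asn and shares its control libraries with the first. Of 17 cytosolic genes 10 rose and 6 fell, and of 14 mitochondrial genes 1 rose, 8 fell and 5 were not called. Over all genes 32.9% rose and 31.9% fell. With library totals 8066 of all genes rose and 3984 fell in place of 5893 and 5716, and of the mitochondrial genes 3 rose and 5 fell. Changes of at least 2-fold were rises of 7 cytosolic genes, the 6 above and NARS1 (log2 1.11), and falls of KARS1 (log2 -1.02), IARS2 (-1.14) and LARS2 (-1.18). WARS1 was 17.9-fold above +Asn (log2 4.16, SE 0.0787, edgeR adjusted p = 3.34e-16). NARS2 remained above +Asn by log2 0.38. With library totals HARS1, TARS2 and RARS2 changed sign. Without replicate 1 of +Asn, or without any 1 of the -Asn libraries, 2 mitochondrial genes rose.

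The 4 genes with rows on alternate sequences show a limit of the counts. CARS1, the cysteine enzyme, had 90 counts over the 9 libraries on its chromosome 11 row and 7286 on its alternate row. The sum of both rows was 258, 326 and 294 counts for +Asn. It was 1163, 1096 and 1138 counts for -Asn and 1307, 815 and 979 counts for -Asn+Fe. All libraries without asparagine were above those with it, and the summed gene rose by log2 1.78 in -Asn (SE 0.109, edgeR adjusted p = 4.97e-10). Its change between -Asn+Fe and -Asn was -0.02.

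VARS1 and VARS2, the valine enzymes, had 92 and 16 counts in all over 7 and 11 rows, and SARS2 had 2 counts over 2 rows. Among all protein-coding names with a row on a chromosome and further rows on alternate sequences, 83.7% of 1042 had under 90 counts on the chromosome row, against 36.7% of 18869 names with a single row. How reads that fit several places were counted is not given in the sources used here. No RNA result is drawn for VARS1, VARS2 and SARS2, and whether the summed counts hold all reads of CARS1 was not tested.

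The promoter mark gives a second view of the same genes. The peak table holds positions only, so the measure is the number of bases that the peaks of a library cover in a merged region, tested with limma on the log2 scale over 13883 regions with a peak in all 9 libraries. For 34 of the 35 genes such a region was found no farther than 1 kb from the gene's outermost 5′ end. HARS1 and HARS2 share theirs, which leaves 33 regions. For MARS1 the outer 5′ end lies far upstream of the RefSeq start, and a region with a peak in all 9 libraries was found at the RefSeq start instead. Regions were found for VARS1, VARS2 and SARS2 too, with mean widths of 2144, 1054 and 2086 bases in +Asn. The VARS2 region also holds the 5′ end of GTF2H4, and the SARS2 region that of MRPS12. The mark there cannot be assigned to the synthetase gene alone.

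In -Asn 7 of the 33 regions were wider and 0 narrower, all 7 at cytosolic genes: WARS1, SARS1, CARS1, IARS1, GARS1, EPRS1 and KARS1. Over all regions tested 14.6% were wider and 1.45% narrower, so the share of wider regions at these genes, 7 in 33, was not far above the background. The median log2 change was 0.07 for the 33 regions and 0.09 for all. The median width over all tested regions was itself larger without asparagine (1653 bases in +Asn, 1757 in -Asn). With widths centred on the library median 1227 regions were wider and 1039 narrower in place of 2032 and 201, and at the synthetase genes 5 were wider and 2 narrower. EPRS1 and KARS1 lost their calls on that scale, and SARS2 and YARS2 became narrower. The EPRS1 call was lost under 10 of 14 alternatives.

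The WARS1 region (chromosome 14, 100372827 to 100377319 of hg38) changed most. Its width was 1923, 2016 and 1753 bases in the +Asn libraries, 3978, 4339 and 3905 bases without asparagine, and 4108, 3943 and 3954 bases with iron and hinokitiol added. The groups with and without asparagine were far apart (log2 1.103, 2.15-fold, in -Asn, SE 0.0571, limma adjusted p = 3.82e-06). Most of the added width lay on the gene's side. Measured from the upstream start, the peak ended 1186 to 1234 bases into the gene in +Asn and 3077 to 3500 bases into it in -Asn. Its other edge lay 566 to 796 bases before the start in +Asn and 827 to 860 bases before it in -Asn. In +Asn the peak thus already covered the downstream start, which lies 980 bases into the gene, and in -Asn it reached well past it.

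**Figure D3:**
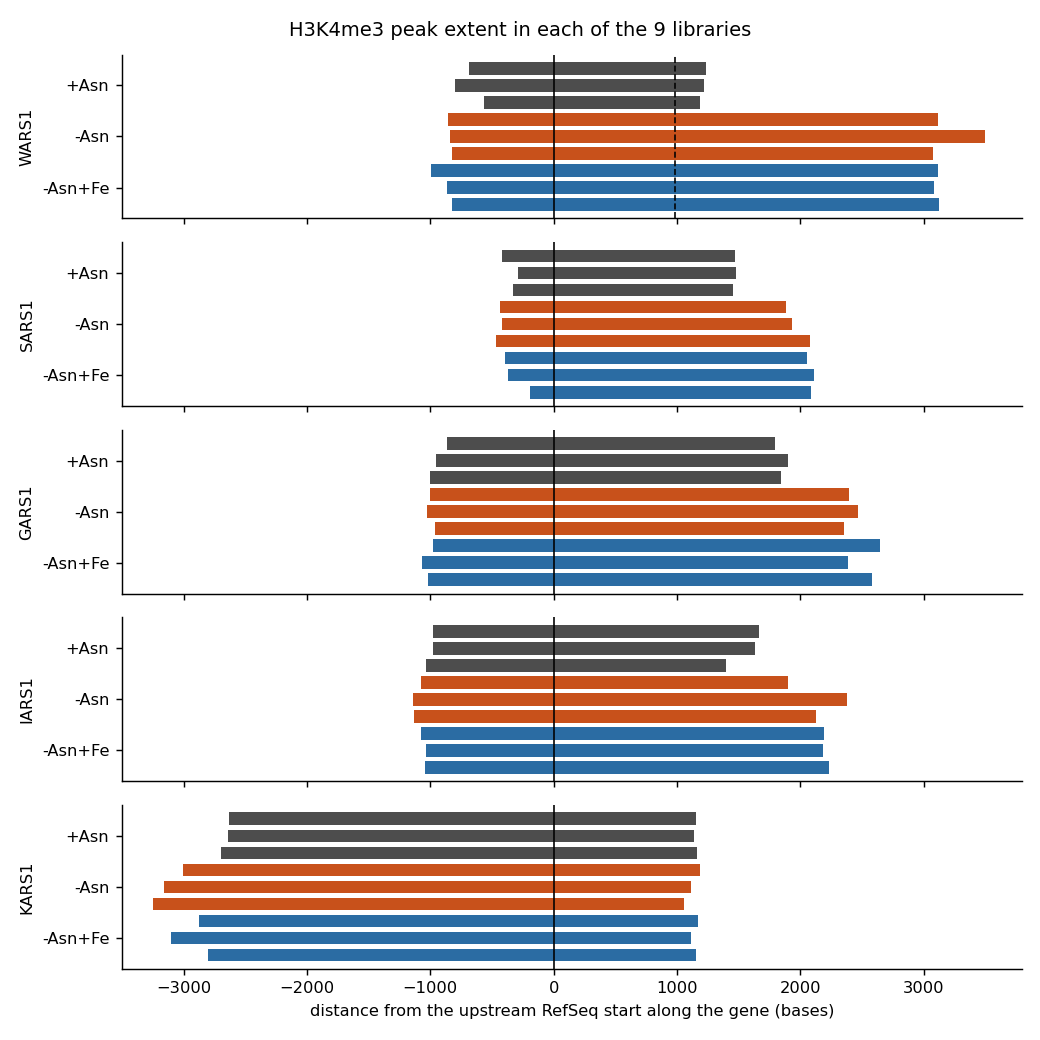
Extent of the H3K4me3 peak in each of the 9 libraries (bars, coloured by medium) at 5 synthetase promoters, with distance in bases from the upstream RefSeq start (solid line at 0) along the gene on the x axis; the dashed line marks the downstream start of WARS1. Without asparagine the downstream edge lies farther out at WARS1, SARS1, GARS1 and IARS1, and at KARS1 the upstream edge does.

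SARS1 widened from 1887, 1770 and 1788 bases to 2318, 2353 and 2545 (log2 0.41, SE 0.0532, limma adjusted p = 0.00104). Its downstream edge moved from 1455 to 1478 bases to 1885 to 2078 bases, and its upstream edge from 291 to 415 bases before the start to 422 to 466. At GARS1 the downstream edge moved from 1795 to 1899 bases to 2351 to 2464 (region width log2 0.29, limma adjusted p = 0.00154). At IARS1 the downstream edge moved from 1399 to 1668 to 1903 to 2377 (log2 0.34, limma adjusted p = 0.00469). The upstream edge of IARS1 moved less, from 978 to 1031 bases before the start to 1076 to 1140. CARS1 widened from 1287 ± 37.0 to 1684 ± 44.4 bases (log2 0.39, limma adjusted p = 0.00737). The MARS1 region at its RefSeq start, looked up after the data were seen, went from 1384, 1311 and 1399 to 1666, 1753 and 1913 bases (log2 0.38, limma adjusted p = 0.00629).

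Width and RNA did not always move together. KARS1 RNA fell while its region widened from 3806 ± 40.9 to 4258 ± 61.2 bases (log2 0.16, limma adjusted p = 0.0121). This promoter is shared with TERF2IP, a telomere-binding protein gene on the other strand, whose RNA rose from 96.8 ± 3.74 to 193 ± 21.6 CPM (edgeR adjusted p = 9.78e-09). The widening was on the TERF2IP side, where the edge moved from 2628 to 2694 bases before the KARS1 start to 3003 to 3247. The edge inside KARS1 stayed between 1060 and 1186 bases in these 6 libraries.

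AARS1, whose RNA rose 2.85-fold, had a region of 1608 ± 35.9 bases in +Asn and 1804 ± 141 in -Asn that did not pass the test (log2 0.16, limma adjusted p = 0.0914). A small second region upstream of it held peaks of 270, 328 and 332 bases in the +Asn libraries and none in the other 6. This second region lies inside DDX19B, a gene that starts beside AARS1 on the other strand, so it cannot be assigned to AARS1. NARS1 went from 2047 ± 113 to 2122 ± 135 bases (log2 0.05, limma adjusted p = 0.574) and YARS1 changed by -0.01, although their RNA rose. None of the 16 regions of mitochondrial genes passed the test in -Asn. The region counted for CARS2 is that of its outermost 5′ end, shared with ING1.

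**Figure D4:**
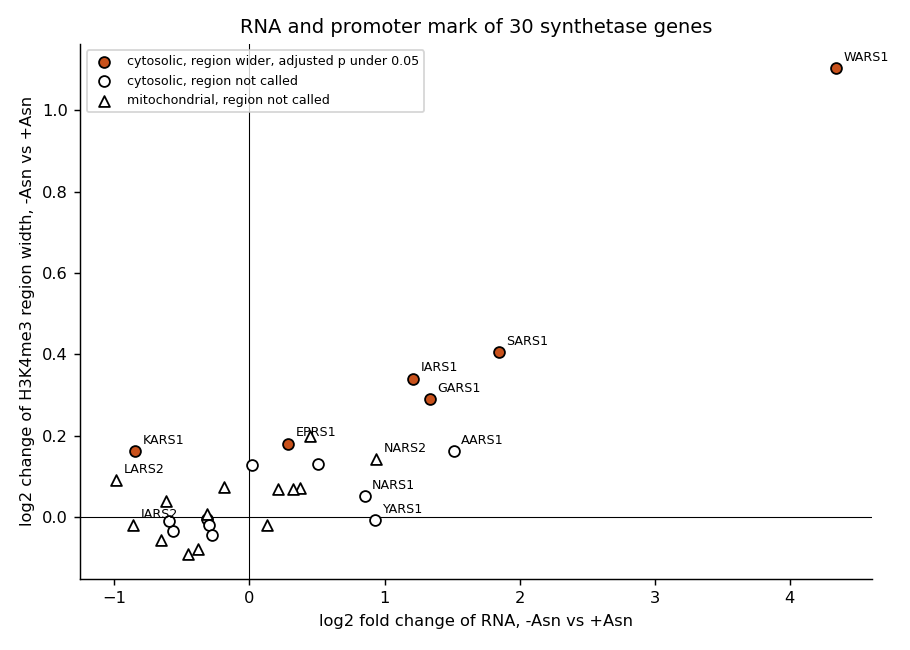
Log2 fold change of RNA (x axis) against log2 change of H3K4me3 region width (y axis), both -Asn against +Asn, for the 30 synthetase genes with both values; filled points are regions with a limma adjusted p under 0.05. WARS1 lies at 4.34 and 1.103, SARS1 at 1.85 and 0.41, and KARS1 at -0.84 and 0.16.

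Between -Asn+Fe and -Asn 0 of the 33 regions were wider or narrower by limma, as for all regions (0% and 0%). At an unadjusted p under 0.05 there were 4 of the 33 and 1042 of all regions, and no other tool was run. WARS1 differed by -0.02 on the log2 scale. Against +Asn, -Asn+Fe had 7 wider and 2 narrower regions, beside 11.7% wider and 1.92% narrower of all, with 1621 wider and 266 narrower there becoming 1256 and 1052 on the centred scale. WARS1 (log2 1.08), SARS1 (0.40), GARS1 (0.36) and IARS1 (0.34) were wider under every alternative. CARS1, LARS1 and TARS1, which were wider, and SARS2 and YARS2, which were narrower, each lost the call under at least 5 alternatives. The narrower count was 0 when any +Asn replicate, or replicate 2 or 3 of -Asn+Fe, was left out, and 1 without its replicate 1. The wider count was 4 without replicate 3 of +Asn or replicate 1 of -Asn+Fe.

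Genes of the other steps in making and using charged tRNA went both ways. In -Asn the exportin for tRNA, XPOT, rose by log2 0.69, and TRNT1, which adds the tRNA end, was not called. SEPSECS and PSTK, which finish selenocysteyl-tRNA made by SARS1, rose by log2 0.34 and 0.60. Of 4 genes that mature mitochondrial Gln-tRNA or initiator Met-tRNA QRSL1 (log2 -0.76) and MTFMT (-0.34) fell and GATC rose (0.16). Of 6 proofreading and peptidyl-tRNA hydrolase genes 2 fell, near the 30.2% of all genes, and 0 rose. TUFM, the mitochondrial elongation factor that brings charged tRNA to the ribosome, fell by 0.71, and EEF1A1, its cytosolic counterpart, was not called (log2 0.09).

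The amino acid response list had 7 of 8 genes higher in -Asn and 0 lower, beside 31% and 30.2% of all genes. ASNS, the asparagine synthetase gene, was not called, at means of 0.332 and 0.352 CPM. ATF4, a gene of this list, rose by log2 1.02 in RNA. Among genes known to be induced by interferon gamma, IRF1 (log2 0.44) and GBP2 (0.82) rose, and GBP1 (-0.29), GBP4 (-1.38) and CIITA (-0.89) fell. Others could not be tested: TAP1, PSMB8 and PSMB9 have rows on alternate sequences as VARS1 does, and CXCL10, IDO1 and GBP5 had means at or under 0.14 CPM in every medium. The 20.3-fold rise of WARS1 thus stood beside changes in both directions on this list. These lists were chosen with earlier results known, and no test was made of any list as a whole.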

How the data were processed

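RNA and H3K4me3 were measured in 9 libraries each. The members and gene lists were chosen with earlier results of these data known. The authors' deposited RNA values are raw counts per gene, aligned to hg38 by STAR (2.7.2a) and counted by featureCounts (Subread 1.6.5), per the submitters' processing notes. The same notes name Bowtie2 (2.4.4), Picard (2.18.26) and, for peaks, MACS2 (2.2.7.1). Strand setting, treatment of reads that fit several places and peak threshold: not given in the sources used here. Per the file headers the deposited count table also holds a gene length, used for levels per kb, and the deposited peak table gives peak positions in each library, in columns that call complete medium untreated.

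The quasi-likelihood test of edgeR 4.0.16 (R 4.3.3, filterByExpr, TMM factors, robust, the 9 libraries in 1 fit) was applied to counts, with Benjamini-Hochberg adjusted p under 0.05 called over 17939 genes. Widths were tested with limma 3.58.1 (trend) over 13883 regions. Both were tested on simulated data with 200 changed features. Depth was 29362707 to 42478518 counts. The name table holds 60306 of the 66738 IDs. Values of every library are given for members called with at least 2-fold change in -Asn against +Asn or -Asn+Fe against -Asn, for cytosolic members called with log2 at least 1 or at most -0.5 in the first of these, and for WARS1, SARS1, NARS1 and NARS2; other members are given by fold change or counts, and further genes come from the lists or share a member's H3K4me3 region. Promoters are RefSeq windows of GRCh38.p14. Alternatives were DESeq2 1.42.0, other scalings and filters, fewer libraries, outer spans, centred widths, a 2 kb window and the replicate block; summing the rows of a gene and using RefSeq starts were added after the data were seen. The input libraries were not used, and some genes of the related lists are not reported here. Python 3.11.15 was used for promoters and figures.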

Additional observations from a re-analysis of the deposited data

How the results depend on the processing

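Replicate numbers did not pair the libraries: same-numbered libraries correlated at -0.08 to 0.07 in RNA and at -0.21 to 0.09 in H3K4me3, with 0 of 9 pairs over 0.1 in either. With the replicate block 2 in place of 1 mitochondrial genes were higher in -Asn+Fe than in +Asn, and 4 in place of 7 regions were wider and 1 in place of 2 narrower; other counts stayed within 1.5 times.

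With library totals only, 3 cytosolic and 5 mitochondrial genes were lower in -Asn, 2 mitochondrial genes were higher in -Asn+Fe than in -Asn, and 3 were higher and 5 lower than in +Asn. The signs of RARS2 (log2 0.0212 in -Asn and 0.0279 in -Asn+Fe), HARS1 (0.0576 in -Asn+Fe) and TARS2 (0.0612 in -Asn+Fe) against +Asn then reversed. The stricter filter gave 4 cytosolic and 2 mitochondrial genes higher in -Asn+Fe than in -Asn, and 3 mitochondrial genes higher than in +Asn. Fitting only the libraries compared gave 1 cytosolic gene higher in -Asn+Fe than in -Asn and 2 mitochondrial genes higher than in +Asn. Centred widths gave 2 narrower regions in -Asn, and 4 wider ones in -Asn+Fe than in +Asn.

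Leaving out 1 library at a time, cytosolic genes higher in -Asn+Fe than in -Asn numbered 1 to 5 and lower ones 2 to 4, and mitochondrial genes higher 0 to 1 and lower 3 to 6. The 5 came without -Asn replicate 1. Mitochondrial genes higher in -Asn+Fe than in +Asn numbered 1 to 2, regions wider 4 to 6 and narrower 0 to 2. In -Asn against +Asn the counts of cytosolic genes stayed at 10 and 6, and those of mitochondrial genes at 4 and 7 to 8. In all, 23 of 29 RNA calls in -Asn, 6 of 13 between -Asn+Fe and -Asn, and 22 of 26 between -Asn+Fe and +Asn held under every alternative, as did 5 of 7 and 4 of 9 region calls against +Asn. The causes were not tested.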
